A study of Mus musculus with 16 samples.

Results

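The GIMAP genes (GTPases of the immunity-associated protein family) were followed in single CD4+ T cells of mice infected with the nematode Nippostrongylus brasiliensis. The 8 genes Gimap1, Gimap3, Gimap4, Gimap5, Gimap6, Gimap7, Gimap8 and Gimap9 were taken by their symbols from 31053 genes listed for the lung and mesenteric lymph node (MLN) libraries and 32285 genes listed for the node libraries. All 8 passed the filter on low counts in every comparison. The family was chosen after an earlier analysis of these data had placed Gimap7 among the genes that were lower in mediastinal lymph node (medLN) than in MLN IL-4eGFP+ cells. The family was thus chosen by the fitted difference of Gimap7 in that contrast, and the other members entered by their symbols. The values of all members in that contrast are given below as a description and without a test.

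All mice were female IL-4eGFP reporter (4get) mice on a C57BL/6 background, in which cells licensed to transcribe the Il4 locus fluoresce green, and all were infected, so no uninfected control was part of the data. Cells were taken on day 10 of infection. In the first run, IL-4eGFP+CD4+ cells (Th2 cells) were sorted from lung and MLN of 2 mice aged 13 weeks, with 1 library for each organ and mouse. In the second run, CD4+ cells of medLN, the node that drains the lung, and of MLN came from 2 mice aged 10 weeks, were marked by organ and mouse with hashtag antibodies, and were sorted into 1 IL-4eGFP+ and 1 IL-4eGFP- library. The reporter marks cells early in Th2 differentiation, so the IL-4eGFP+ gate also holds cells that need not become Th2 effector cells. Lungs were perfused, enzymatically digested and cleaned on Percoll, and nodes were only mashed, so tissue handling and organ cannot be told apart in the comparison of lung with MLN. Perfused lung can also retain cells of the vasculature. Gate and library cannot be told apart in the comparison of the gates.

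GIMAP proteins are small GTP-binding proteins of vertebrate lymphocytes that share 1 type of GTPase domain and sit mostly on intracellular membranes. They are best known for their part in the survival of resting lymphocytes: mice or rats that lack Gimap5 lose peripheral T cells, and Gimap1 is needed to keep mature T and B cells. Gimap3 and Gimap5 have been described as binding partners of BCL2 family proteins, Gimap4 as promoting the death of T cells once it has been triggered, and Gimap6 as a partner of the autophagy protein GABARAPL2.

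After filtering, 21462 cells remained in 12 samples, with 416 to 2462 cells and 2798232 to 14512767 unique molecular identifiers (UMIs) per sample. Each UMI counts 1 captured transcript at its 5′ end, so levels were compared between genes as CPM (counts scaled to the total UMIs of the sample) with no correction for length. Median depth was 4971 to 6910 UMIs per cell in the first run and 3165.5 to 3666.5 in the second. Between 0 and 147 cell barcodes were shared between pairs of libraries, the highest number between the IL-4eGFP+ and IL-4eGFP- libraries, of 9382 and 10024 barcodes. The sorted cells were T cells: the summed level of Cd3d, Cd3e, Cd3g, Cd4 and Lck lay between 3704 and 5212 CPM in all samples. Il4 stood at 153 to 446 CPM in the 8 IL-4eGFP+ samples and at 0 to 0.398 CPM in the 4 IL-4eGFP- samples. Endothelial cells, which also use GIMAP genes, left little signal: Cdh5 was at or below 0.265 CPM in all samples, and the sum of all 6 endothelial markers, 37.3 to 71.7 CPM, was almost entirely Pecam1, which T cells transcribe too. Markers of B cells summed to at most 43.4 CPM, those of myeloid cells to at most 115 CPM, and those of CD8 and NK cells to at most 26.8 CPM. MLN sample 2 of the first run stood apart by the pancreatic genes Ctrb1 (27.7 CPM) and Cela2a (21.9 CPM), which were at or below 1.41 CPM elsewhere. The 4 comparisons by organ or gate rest on 2 mice per group, and 1 of them carries no test of the members. P-values between organs rest on 2 animals per organ, and edgeR moderates the spread of each gene by that of the other genes tested. The main organ fits did not pair the organs of a mouse. The gate comparison takes medLN and MLN of the same 2 mice as 4 independent samples per gate, allowing for the organ. The tests of cell classes likewise take samples that share 2 mice as separate blocks. Small p-values in these tests do not stand for 4 independent animals.

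The 8 genes form 1 cluster on chromosome 6 of the mouse genome (GRCm38, chr6:48647234-48770851), 124 kb long, with 6 members on the plus strand and Gimap6 and Gimap3 on the minus strand. All 8 are protein-coding in GENCODE vM21. The sequences shown first are the GTP-binding P-loops, the part of the coding sequence by which a reader can recognise the family: 24 bases that code for the glycine-rich loop around the phosphates of GTP, found by translating each coding sequence and searching for the general P-loop pattern. Capitals mark the codons of the fixed residues, a first glycine and the closing glycine, lysine and serine.
Gimap1: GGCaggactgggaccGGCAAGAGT
Gimap3: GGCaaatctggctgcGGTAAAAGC
Gimap4: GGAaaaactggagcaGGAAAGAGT
Gimap5: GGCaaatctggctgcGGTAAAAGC
Gimap6: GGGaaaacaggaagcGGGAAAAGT
Gimap7: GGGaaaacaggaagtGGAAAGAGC
Gimap8, match 1: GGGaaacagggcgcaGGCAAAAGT
Gimap8, match 2: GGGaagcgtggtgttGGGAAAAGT
Gimap8, match 3: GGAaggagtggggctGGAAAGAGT
Gimap9: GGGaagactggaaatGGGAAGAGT

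Each of these P-loops lies within a single coding exon. Gimap8 carries 3 of them, at coding positions 163, 871 and 1444 of 2064, while the other members carry 1 each. Gimap3 and Gimap5 have the same 24 bases, Gimap3 at chr6:48765887-48765910 on the minus strand and Gimap5 at chr6:48752594-48752617 on the plus strand. Over the whole coding sequence these 2 genes were 86.9% identical, the closest pair of the family, and their transcripts share a run of 140 identical bases. Reads inside such a run cannot be given to 1 of the 2 genes, so values of Gimap3 and Gimap5 carry this uncertainty. The next closest pair, Gimap7 and Gimap9, was 64.5% identical with a longest shared run of 17 bases. The annotated read-through gene Gm28053 covers 81 bases of an exon of Gimap7, 100 and 98 bases of 2 exons of Gimap1, and 49 and 104 bases of 2 exons of Gimap5. It was listed as a gene of its own only in the first run, so reads in those stretches could be counted differently in the runs, and no member was compared between runs. Within the first run, where Gm28053 stood at 16.4 to 19.9 CPM, such reads may be missing from Gimap7, Gimap1 and Gimap5. The effect on their order and shares among the members was not tested.

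Summed over the 8 genes, the family made up 1007 and 1272 CPM in the 2 lung samples and 2214 and 2240.3 CPM in the 2 MLN samples of the same mice. In the second run the sum was 1693 and 1716 CPM in IL-4eGFP+ medLN, 2058 and 2037 CPM in IL-4eGFP+ MLN, 2152 and 2264 CPM in IL-4eGFP- medLN, and 2399 and 2474 CPM in IL-4eGFP- MLN. The lung samples were thus the lowest of their run, and the IL-4eGFP+ medLN samples the lowest of theirs, and in neither case did the group overlap with another. The IL-4eGFP+ medLN sum contains the Gimap7 difference by which the family was chosen (118 CPM in medLN, 221 CPM in MLN). Its low place is a description only. Counted per cell, the family reached 7.92 and 8.55 UMIs in lung and 13.1 and 13.3 UMIs in MLN. Per cell the gates of the second run lay closer together, with 7.82 to 10.8 UMIs in IL-4eGFP+ and 7.68 to 9.004 UMIs in IL-4eGFP- samples. Within the same organ and mouse, IL-4eGFP+ cells held more per cell, except in medLN 2 (8.07 against 8.17 UMIs). IL-4eGFP+ samples were also deeper by the mean, with 9205232 to 10636927 UMIs from 1992 to 2058 cells. IL-4eGFP- samples held 7546083 to 8073432 UMIs from 2091 to 2249 cells. With each cell drawn down to 2000 UMIs, the family mean was 4.11 to 4.85 UMIs in IL-4eGFP+ samples. It was 4.30 to 5.10 UMIs in IL-4eGFP- samples, and higher there for each organ and mouse. When each cell was thinned to 2000 UMIs, which left out 8 to 263 shallower cells per sample, 21.3% and 15.2% of lung cells held no GIMAP UMI, against 2.28% and 2.83% of MLN cells and 1.47% to 5.57% in the second run. The sorted cells held no population known to lack GIMAP transcripts, so the contribution of free RNA to these shares was not tested.

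**Figure D1:**
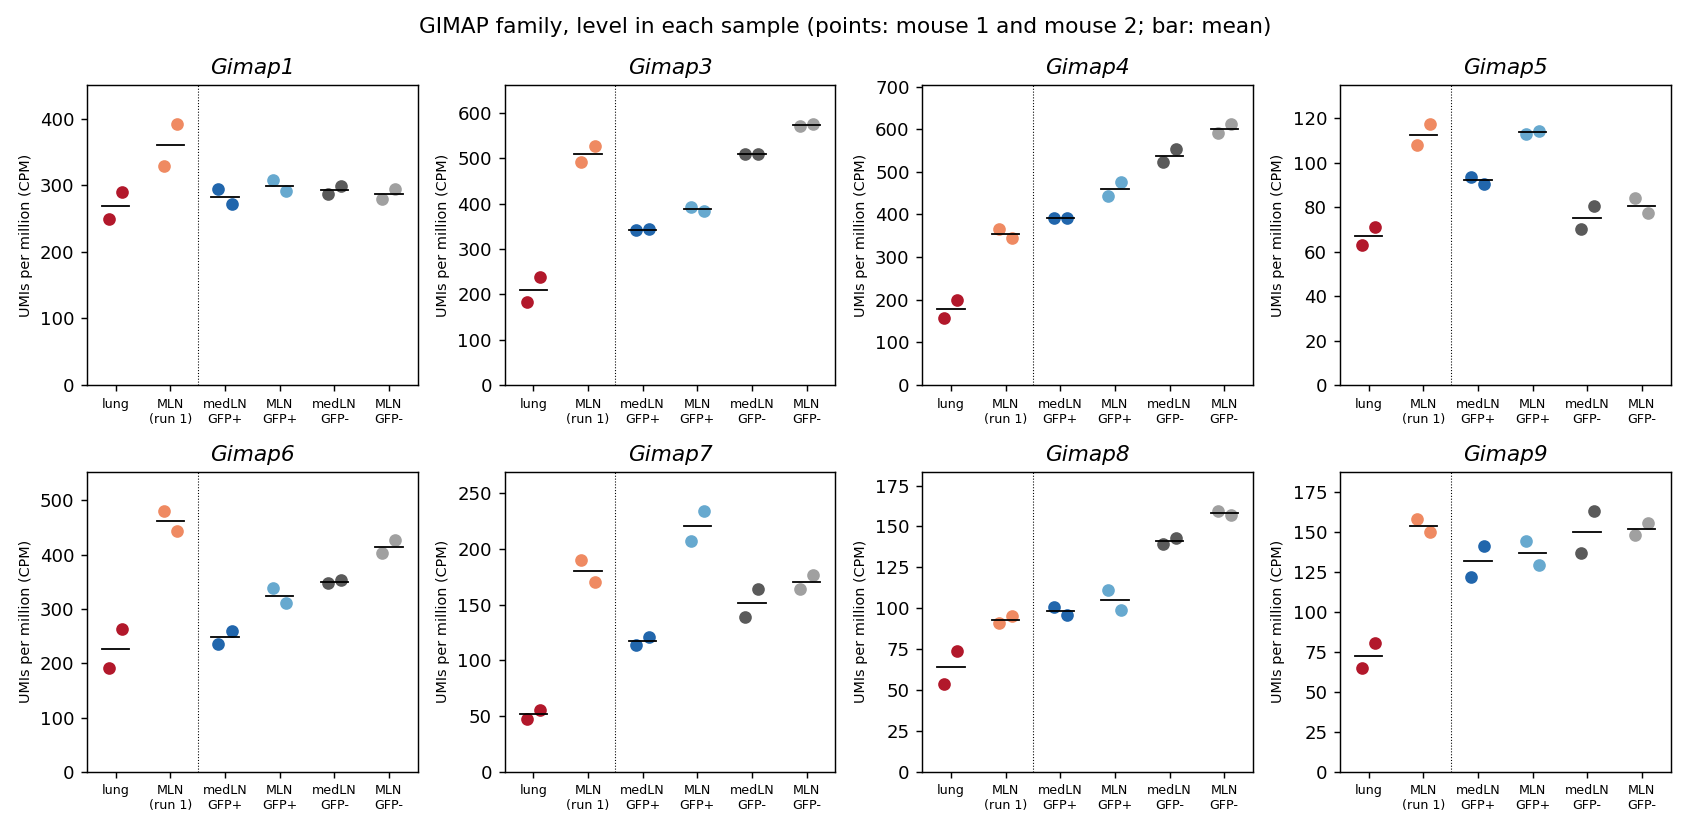
Level of each GIMAP gene in CPM (y axis from 0) in the 12 samples, by organ and gate (x axis). Points are mice 1 and 2, the bar is their mean, and the dotted line separates the first from the second run. Both lung points lie below both first-run MLN points for all 8 genes, beside 14% of 10587 genes called lower in lung. The share of all genes whose points separated in this way was not counted. Gimap5 is the gene whose IL-4eGFP+ points lie above the IL-4eGFP- points.

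In lung, Gimap1 was the most abundant member (269 ± 29.3 CPM, SD, n = 2), followed by Gimap6 (227 ± 51.1 CPM), Gimap3 (209.7 ± 39.0 CPM) and Gimap4 (179 ± 30.5 CPM), and each of these neighbours overlapped with the next. The other 4 formed a lower group between 47.6 and 80.4 CPM that ended with Gimap7 (51.7 ± 5.76 CPM), and again each overlapped with the next. In MLN of the same mice the order was Gimap3 (509 ± 25.4 CPM), Gimap6 (463 ± 25.7 CPM), Gimap1 and Gimap4, then Gimap7 (180.25 ± 13.9 CPM), Gimap9, Gimap5 and Gimap8 (92.9 ± 3.15 CPM), and only Gimap1 and Gimap4 overlapped with each other. In all 4 groups of the second run Gimap4 came first and Gimap3 second, without overlap. Gimap1 took 23.8% of all GIMAP UMIs in lung and 16.2% in MLN, while Gimap7 took 4.56% in lung and 8.10% in MLN. Gimap5 was the lowest member in IL-4eGFP+ medLN and in both IL-4eGFP- groups, at 70.1 to 93.7 CPM.

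Lung Th2 cells held less GIMAP transcript than MLN Th2 cells of the same mice in most members, in the comparison that asks how Th2 cells of a peripheral tissue differ from those of a lymph node. Gimap7, a GTPase that has been described to activate GTP hydrolysis by its relatives, stood at 47.6 and 55.7 CPM in lung and at 190.1 and 170.4 CPM in MLN. Its fitted log2 fold change was -1.69 ± 0.12 (SE), a level 3.22-fold lower in lung, with an adjusted p of 8.57e-06 in edgeR's quasi-likelihood test. Gimap3 (182 and 237 against 491 and 527 CPM) followed with a log2 fold change of -1.16 ± 0.13 and an adjusted p of 0.000128 in edgeR. In both genes every lung sample lay below every MLN sample, and the lower lung values were those of mouse 1.

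Gimap9 (log2 fold change -0.97 ± 0.11), Gimap6, the GABARAPL2 partner (-0.92 ± 0.13), Gimap4 (-0.88 ± 0.12) and Gimap5, the gene needed for T cell survival (-0.62 ± 0.11), were also lower in lung, with edgeR adjusted p-values from 0.00023 to 0.00258. Gimap8, the member with 3 P-loops, was called at -0.44 ± 0.13 (adjusted p = 0.0288 in edgeR), but the call was lost without lung sample 1 (-0.27, adjusted p = 0.18), without MLN sample 1 (0.0969) or 2 (0.133), with DESeq2 (0.128) and with equal numbers of cells per library (0.0841). Gimap1 did not pass the threshold (-0.29 ± 0.12, adjusted p = 0.0989 in edgeR), although its values of 248.7 and 290.2 CPM in lung lay below 329 and 392 CPM in MLN, and with the mouse as a block it was called (adjusted p = 0.0385). In all, 7 of 8 members were called lower in lung, where 14% of the 10587 genes tested were called lower and 31% were called in either direction. The median log2 fold change of the family was -0.90, and that of all genes tested was -0.01. Log2 CPM ratios minus fitted values had a median of -0.12, about the size of the SE of the fits. With the scaling of DESeq2 in edgeR the same 7 members were called, and no fit without scaling was run. The summed level of the 5 T cell markers was also lower in lung, at 3781 to 3885 CPM against 5131 to 5212 CPM in MLN, as was that of the 6 endothelial markers, at 37.3 to 41.8 CPM against 70.3 to 71.7 CPM, with 4 of the 6 at 0 in both lung samples. The part of these shifts in the GIMAP difference was not tested.

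The same 7 members were called without cells that carried a Mki67 or Top2a UMI, and Gimap7 then stood at -1.72 on the log2 scale (adjusted p = 5.65e-06 in edgeR). After thinning every cell to 2000 UMIs it stood at -1.72, and without the requirement for a productive T cell receptor at -1.79. Within each mouse, raw log2 CPM ratios of lung over MLN were -1.998 and -1.61 for Gimap7, and -1.14 and -0.82 for the whole family.

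**Figure D2:**
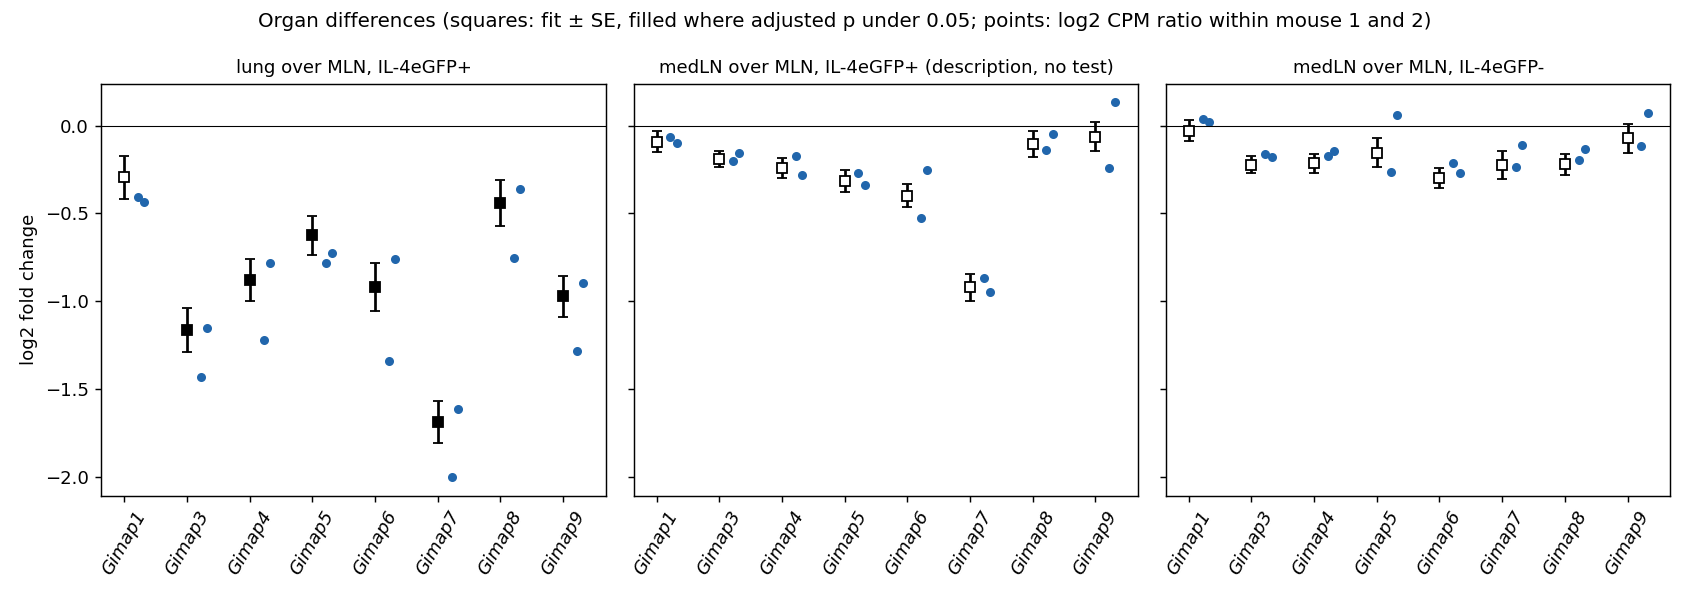
Log2 fold change of each GIMAP gene (y axis) between lung and MLN and between medLN and MLN in both gates. Squares are fitted values with their SE, filled where the adjusted p was under 0.05, and blue points are log2 CPM ratios within mouse 1 and mouse 2; the middle panel carries no test. In the left panel 7 of 8 squares are filled, all below 0, with Gimap7 lowest at -1.69, and in the right panel all squares are open.

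Other gene groups showed other patterns in lung. Of 17 genes of T cell quiescence and recirculation, 8 were higher and 5 lower in lung, with Il7r, the IL-7 receptor chain (log2 fold change 2.48 ± 0.24), and the antiproliferative genes Btg2 (2.30 ± 0.16) and Tob1 (2.29 ± 0.15) among the higher ones and Tcf7, a factor of naive and central memory T cells, among the lower ones (-1.89 ± 0.12). Their median was 0.42. Of 12 BCL2 family genes, 6 were higher and none lower in lung. Over all genes tested 17% were called higher and 14% lower. These were led by the death-promoting Pmaip1 (3.57 ± 0.36) and Bcl2l11 (2.06 ± 0.16) and the protective Bcl2a1d (2.00 ± 0.22), with a median of 0.45 for the list. Of 8 partners, Gabarapl2, the autophagy protein bound by Gimap6, rose by 0.49 ± 0.12, Map1lc3a by 1.65 ± 0.15 and the kinase gene Gsk3b by 0.46 ± 0.12 on the log2 scale, and 5 did not pass the test. Adjusted p-values of the genes named here ranged up to 0.0188 in edgeR. Of 8 neighbours of the GIMAP cluster and its antisense gene, 4 were tested, and only Repin1, at 1.65 and 1.79 CPM in lung against 4.89 and 4.02 CPM in MLN, was called (-1.27 ± 0.37, adjusted p = 0.0291).

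The promoters of the genes at both ends of this comparison are shown because Gimap7 had the largest and Gimap1 the smallest fitted difference between lung and MLN. Each is the 250 bases before the RefSeq transcription start (GRCm38.p6), Gimap7 at chr6:48718371-48718620 and Gimap1 at chr6:48738797-48739046, both on the plus strand. Capitals mark the match to the RUNX motif TGTGGT, here read on the reverse strand.
Gimap7 promoter: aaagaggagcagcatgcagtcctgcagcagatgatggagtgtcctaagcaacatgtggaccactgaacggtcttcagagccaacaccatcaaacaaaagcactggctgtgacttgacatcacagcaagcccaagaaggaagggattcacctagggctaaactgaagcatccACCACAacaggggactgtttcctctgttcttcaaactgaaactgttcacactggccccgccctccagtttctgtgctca
Gimap1 promoter: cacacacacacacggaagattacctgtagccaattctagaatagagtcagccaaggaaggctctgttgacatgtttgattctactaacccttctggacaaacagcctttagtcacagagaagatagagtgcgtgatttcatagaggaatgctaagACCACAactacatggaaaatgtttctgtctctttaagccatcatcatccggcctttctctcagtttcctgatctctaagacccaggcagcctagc

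The motifs searched on both strands were GGAAGT (ETS), TGTGGT (RUNX), GTAAACA (FOXO), CTTTGA (TCF/LEF) and CACNCCC (KLF), and none of their matches in these promoters overlapped. Of the 9 family promoters, 2 belonging to Gimap8, 3 held the RUNX motif, those of Gimap1, Gimap4 and Gimap7, and 14.0% of 32851 promoters of the same length held it. The ETS motif was found in the promoters of Gimap5 and Gimap6 (19.7% of all promoters), as was the KLF motif (26.1%), and the FOXO motif in that of Gimap3 (3.17%). None held the TCF/LEF motif, which 13.8% of all promoters held. Among the motifs searched, the promoters of Gimap7 and Gimap1 held only the RUNX motif. Whether these motifs relate to the differences between lung and MLN was not tested.

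Between the nodes, the IL-4eGFP+ cells gave the contrast whose Gimap7 difference had led to the choice of the family. Gimap7 stood at 114 and 121 CPM in medLN and at 207 and 234 CPM in MLN, a fitted log2 difference of -0.92 ± 0.08. No other member came near it: Gimap6 stood at -0.40 ± 0.06, Gimap5 at -0.31 ± 0.06, Gimap4 at -0.24 ± 0.06 and Gimap3 at -0.19 ± 0.05, and Gimap8, Gimap1 and Gimap9 lay between -0.10 and -0.06. Across all genes of this contrast 1.28% of 11262 were called, which is printed as background only.

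IL-4eGFP- cells of the same nodes had no part in that choice. There none of the 8 members was called (adjusted p from 0.0634 for Gimap6 to 0.995 for Gimap1 in edgeR), beside 0.178% of 10683 genes called, and 666 genes had an unadjusted p under 0.05. All 8 fitted values were below 0, from -0.30 ± 0.06 for Gimap6 to -0.03 ± 0.06 for Gimap1, with a median of -0.22. For Gimap7 the values were 139 and 164 CPM in medLN and 164 and 177 CPM in MLN, a log2 difference of -0.22 ± 0.08 (adjusted p = 0.615). The count of 0 depended on the setting: with the mouse as a block Gimap3, Gimap4 and Gimap6 were called, DESeq2 and thinning called Gimap6 alone, and leaving out 1 sample called 1 to 3 members, Gimap6 each time, Gimap7 without medLN 2, and Gimap3 and Gimap4 without MLN 1. The cluster's antisense gene Gimap1os, which overlaps Gimap1 on the other strand, stood at 30.5 and 34.9 CPM in medLN and 37.7 and 39.4 CPM in MLN of this gate. Neither the other lists nor the neighbours of the cluster held a gene past the threshold here.

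Against IL-4eGFP- cells of the same nodes, IL-4eGFP+ cells had less of most members as a share of their transcripts. Gimap3 stood at 342 ± 2.10 CPM in medLN and 388 ± 6.48 CPM in MLN of the IL-4eGFP+ gate, and at 509 ± 1.06 and 572 ± 3.62 CPM in the IL-4eGFP- gate (SD, n = 2). This gave a log2 fold change of -0.77 ± 0.03 (adjusted p = 1.33e-09 in edgeR). Gimap8 (-0.76 ± 0.05), Gimap6 (-0.62 ± 0.04), Gimap4 (-0.62 ± 0.04), Gimap9 (-0.37 ± 0.06) and Gimap1 (-0.19 ± 0.04) were lower too. All 4 IL-4eGFP+ samples lay below all 4 IL-4eGFP- samples for Gimap3, Gimap4, Gimap6 (236 to 339 against 347 to 427 CPM) and Gimap8. The share of all genes that separated the gates in this way was not counted. In total 6 members were called lower and 1 higher, beside 31.5% of 11278 genes called lower and 31.3% called higher. The family's median was -0.49 and that of all genes tested -0.02. Log2 CPM ratios of the members lay above the fitted values by a median of 0.20, and on the CPM scale Gimap1 did not keep its direction, with 272 to 308 CPM in the IL-4eGFP+ and 279 to 298 CPM in the IL-4eGFP- samples. Counted per cell, Gimap1 (1.28 to 1.54 against 1.003 to 1.08 UMIs) and Gimap9 were higher in IL-4eGFP+ cells of each organ and mouse. Gimap3 and Gimap8 were lower per cell in each, and Gimap4 and Gimap6 differed in direction between samples. IL-4eGFP+ samples were deeper by the mean, as given above, and the part of depth in these per-cell values was not tested.

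Gimap5 was the member called higher in IL-4eGFP+ cells as a share of transcripts. It stood at 93.7 and 90.5 CPM in medLN and 113 and 114 CPM in MLN, against 70.1 and 80.6 CPM and 84.1 and 77.2 CPM in the IL-4eGFP- gate. The 4 samples of each gate did not overlap, and the log2 fold change was 0.20 ± 0.05 (adjusted p = 0.00726 in edgeR). It was larger without cycling cells (0.55, adjusted p = 9.54e-07 in edgeR) and after thinning (0.39). In MLN alone it stood at 0.28, and in medLN alone at 0.12, where the call was lost. Gimap7 was not called over both organs (-0.18 ± 0.12, adjusted p = 0.203 in edgeR). Without IL-4eGFP+ MLN sample 2 it stood at -0.29. This value and those of -0.54 in medLN alone and 0.16 in MLN alone contain the difference between the organs that chose the family. They are given without a test.

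The quiescence and recirculation genes moved with the family between the gates. Of 17, 16 were lower in IL-4eGFP+ cells and none higher, with a median of -1.05, and the leading ones were Bach2, a repressor of effector differentiation (-2.87 ± 0.09), the lymph node homing receptor gene Ccr7 (-2.46 ± 0.12), and S1pr1, the receptor for leaving tissue (-1.77 ± 0.12). Beside these and the next counts, 31.3% of all genes tested were called higher and 31.5% lower. Of the 12 BCL2 family genes 6 were higher and 5 lower. The death-protecting genes moved apart, with Bcl2a1d at 2.96 ± 0.07 and Bcl2 at -2.91 ± 0.08. Of the 8 partners 3 were higher, Gabarapl1 (1.75 ± 0.24), Gabarapl2 (0.37 ± 0.05) and Gabarap (0.28 ± 0.04), and Gsk3a was lower (-0.21 ± 0.05). Of the cluster's neighbours and antisense gene, Gimap1os was lower (-0.37 ± 0.07) and Repin1 higher (1.19 ± 0.30), and the genes named here had adjusted p-values up to 0.00429 in edgeR. A Mki67 UMI was found in 12.9% to 16.3% of IL-4eGFP+ and in 1.38% to 2.49% of IL-4eGFP- node cells, so the share of cycling cells moved with the gate. Without cells that carried a Mki67 or Top2a UMI, Gimap1 stood at 0.05 and was not called, while the other 6 calls held. Gimap3, Gimap4, Gimap6 and Gimap8 then lay between -0.41 and -0.24. After thinning these 4 lay between -0.49 and -0.31, and Gimap1, at -0.04, was not called. T cell markers summed to 4309 to 4628 CPM in the IL-4eGFP+ and 3704 to 3895 CPM in the IL-4eGFP- samples, and the part of this shift in the result was not tested.

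Cycling cells were examined directly by setting cells with a UMI of Mki67, a proliferation marker, against cells without one in each sample. In the IL-4eGFP+ nodes all 8 members were lower in the Mki67-positive cells (256 to 326 cells per sample), where 33.9% of 10856 genes were called lower. Gimap3 stood at 145, 163, 187 and 189.5 CPM in Mki67-positive cells and at 462, 450.0, 491 and 506 CPM in Mki67-negative cells of medLN 1, medLN 2, MLN 1 and MLN 2. Its log2 fold change was -1.34 ± 0.05 (adjusted p = 1.66e-12 in edgeR), with no overlap. Gimap6 (-1.29 ± 0.06) and Gimap8 (-1.24 ± 0.08) changed nearly as much, and Gimap7 (-0.50 ± 0.06) and Gimap9 (-0.21 ± 0.06) least. The median of the family was -0.78 and that of all genes -0.03.

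These are differences in share, not in UMIs per cell. Mki67-positive cells held a median of 9751.5 to 10549 UMIs against 2945 to 3393 in the others, and counted per cell every member was higher in the Mki67-positive cells in 4 of 4 samples. Greater depth by itself raises UMIs per cell, so these counts do not measure transcripts per cell apart from depth. The share of all genes that rose per cell was not counted. Gimap3 gave 1.53 to 1.96 UMIs per cell in Mki67-negative and 1.82 to 2.40 in Mki67-positive cells. Gimap9, the member with the smallest difference in share, gave 0.448 to 0.555 and 1.27 to 1.48 UMIs per cell. After thinning every cell to 2000 UMIs, 7 members were still called lower, all but Gimap9. Here and in the other class comparisons, classes were set anew on the thinned counts. Cells whose marker UMIs were not drawn thus moved to the negative class, so thinning changed the classes as well as the depth.

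**Figure D3:**
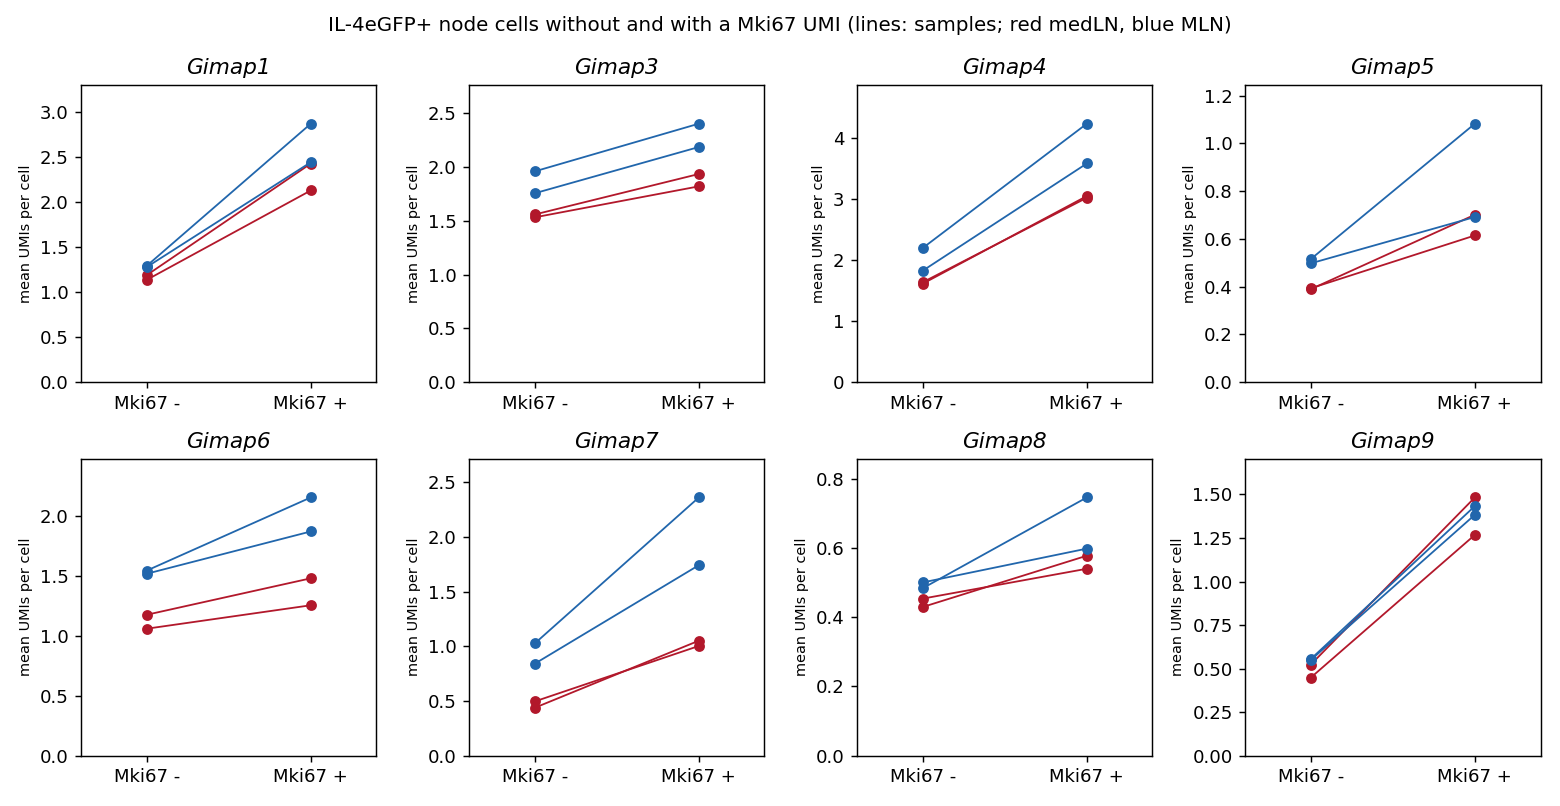
Mean UMIs per cell of each GIMAP gene (y axis from 0) in IL-4eGFP+ node cells without and with a Mki67 UMI (x axis). Each line joins the 2 cell classes of 1 sample, red for medLN and blue for MLN. All 4 lines rise for each gene, in cells that were also deeper, while the same genes fell as a share of transcripts.

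In lung and MLN 7 of 8 members were lower in Mki67-positive cells (50 to 180 per sample), where 17.2% of 9685 genes were called lower, with a family median of -0.44 against -0.07 for all genes. Gimap6 (-0.81 ± 0.10) and Gimap3 (-0.79 ± 0.09) again led, and Gimap9 was not called (0.08 ± 0.11, adjusted p = 0.588 in edgeR). After thinning to 2000 UMIs 3 members were called (Gimap1, Gimap3 and Gimap6), and 2 (Gimap1 and Gimap8) without the sample as a block. Gimap5 lost its call without lung 1 or MLN 1, and Gimap7 without MLN 1 or MLN 2, both also with DESeq2. In the IL-4eGFP- nodes, with 31 to 52 Mki67-positive cells per sample, 5 members were lower, where 17.2% of 10406 genes were called lower: Gimap8 (-1.17 ± 0.14), Gimap3 (-0.82 ± 0.09), Gimap6 (-0.72 ± 0.09), Gimap1 (-0.38 ± 0.11) and Gimap4 (-0.32 ± 0.08). The value of Gimap1 rested on MLN 1, where its log2 CPM ratio was -0.88 against -0.26 to -0.03 in the other 3 samples: without MLN 1 it was -0.20 (adjusted p = 0.147 in edgeR), and DESeq2 did not call it (adjusted p = 0.0817). Among the quiescence genes of this gate all 17 were lower in Mki67-positive cells, led by Bach2 (-1.59 ± 0.17, adjusted p = 5.41e-11 in edgeR). As in the IL-4eGFP+ nodes, these were differences in share. Mki67-positive cells held a median of 10159.5 to 10855 UMIs in lung and MLN and 7935 to 9203 in IL-4eGFP- nodes. Mki67-negative cells held 4851 to 6649 and 3254 to 3362. Per cell the family was higher in Mki67-positive cells in 4 of 4 samples of each set. So was every member, except that Gimap3 in lung and MLN was higher in 3 of 4. These counts per cell were likewise not separated from depth.

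Gimap7 went the other way in the IL-4eGFP- nodes. It stood at 277 and 296 CPM in Mki67-positive and 131 and 154 CPM in Mki67-negative cells of medLN, and at 186 and 217 CPM against 163 and 174 CPM in MLN. The log2 fold change was 0.57 ± 0.12 (adjusted p = 0.000123 in edgeR), higher in 4 of 4 samples, beside 18.4% of genes called higher. Cells with a Foxp3 UMI, the factor that defines regulatory T cells, made up 52.4% and 46.2% of the Mki67-positive cells in medLN and 9.68% and 21.95% in MLN, against 8.39% to 11.4% of the Mki67-negative cells. Without cells that carried a Foxp3 UMI the Gimap7 difference was 0.06 (adjusted p = 0.831), and after thinning it was 0.40 (adjusted p = 0.353). After thinning, which also set the classes anew, 2 members were called in this gate, both lower: Gimap3 (-0.71), and Gimap9 (-1.03), which was not called before thinning.

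The effect of the Mki67 class differed between the gates for 5 members, where 8.03% of 11665 genes were called lower and 7.87% higher in the interaction, a test added after the data had been seen. The log2 effect in IL-4eGFP+ minus that in IL-4eGFP- cells was -1.20 ± 0.19 for Gimap5, -1.12 ± 0.14 for Gimap7, -0.62 ± 0.10 for Gimap6, -0.56 ± 0.09 for Gimap3 and -0.44 ± 0.08 for Gimap4, with adjusted p-values up to 0.00034 in edgeR. Without cells that carried a Foxp3 UMI the interaction of Gimap7 was -0.65 and still called. After thinning to 2000 UMIs, with classes set on the thinned counts, Gimap5 was still called lower (-1.21). Gimap9 was then called higher (1.08, adjusted p = 0.0187 in edgeR), against 0.02 before. The other 6 were not called, with Gimap7 at -0.70, Gimap6 at -0.37, Gimap3 at -0.21 and Gimap4 at -0.13.

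**Figure D4:**
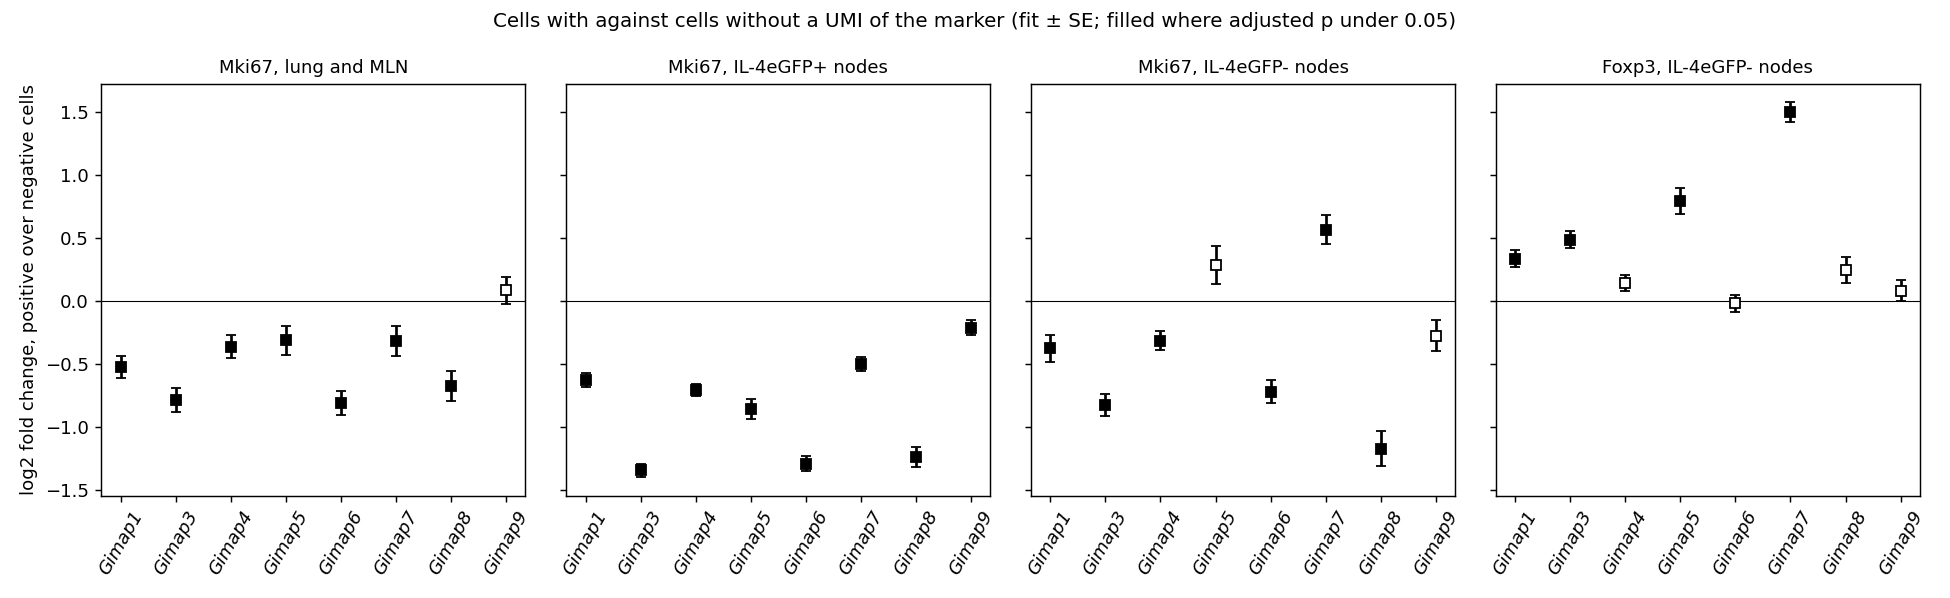
Log2 fold change (y axis) of each GIMAP gene between cells with and without a UMI of Mki67 in the 3 sets of samples, and of Foxp3 in IL-4eGFP- nodes. Squares are fitted values with their SE, filled where the adjusted p was under 0.05. Gimap7 lies below 0 in the first 2 panels, at 0.57 in the third and at 1.496 in the Foxp3 panel.

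Within the IL-4eGFP- gate, Gimap7 was higher in cells that carried the regulatory T cell marker Foxp3. Cells with a Foxp3 UMI numbered 189 to 257 per sample, or 8.40% to 12.3% of cells. In them Gimap7 stood at 345, 417, 384 and 488 CPM in medLN 1, medLN 2, MLN 1 and MLN 2, and in Foxp3-negative cells of the same samples at 111, 123, 144 and 141 CPM. The classes did not overlap, and the log2 fold change was 1.496 ± 0.08, or 2.82-fold, with an adjusted p of 8.21e-10 in edgeR. Gimap5 followed (125, 162, 139 and 116 CPM against 62.4, 67.6, 79.1 and 72.8 CPM), also without overlap, with 0.79 ± 0.10 (adjusted p = 1.87e-05). Gimap3 (0.49 ± 0.07) and Gimap1 (0.33 ± 0.07) were higher in 4 of 4 samples as well.

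Gimap4, Gimap6, Gimap8 and Gimap9 did not pass the test, with log2 fold changes between -0.02 and 0.25. On the CPM scale the log2 ratios lay above the fitted values by a median of 0.16, and Gimap4, Gimap6 and Gimap9 were then higher in 4 of 4 samples. Gimap4 and Gimap8 were called after thinning and without cycling cells. The count of 4 members called higher stood beside 14.2% of 10464 genes, and the family median of 0.29 beside -0.01 for all genes. By the median Foxp3-positive cells were not deeper, at 2768 to 3158 UMIs against 3320 to 3410. Per cell Gimap7 gave a mean of 1.38 to 1.71 UMIs in them and 0.387 to 0.517 UMIs in the others. Deep cells raise such means, so the median does not set depth aside for them. The family was higher per cell in 4 of 4 samples, as was every member. Under the other settings tried, Gimap7 stayed between 1.42 and 1.57 on the log2 scale, including after thinning, with at least 2 Foxp3 UMIs and without cycling cells. As Foxp3 is found in a cell only where its transcript was captured, the Foxp3-negative class may still hold regulatory T cells.

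**Figure D5:**
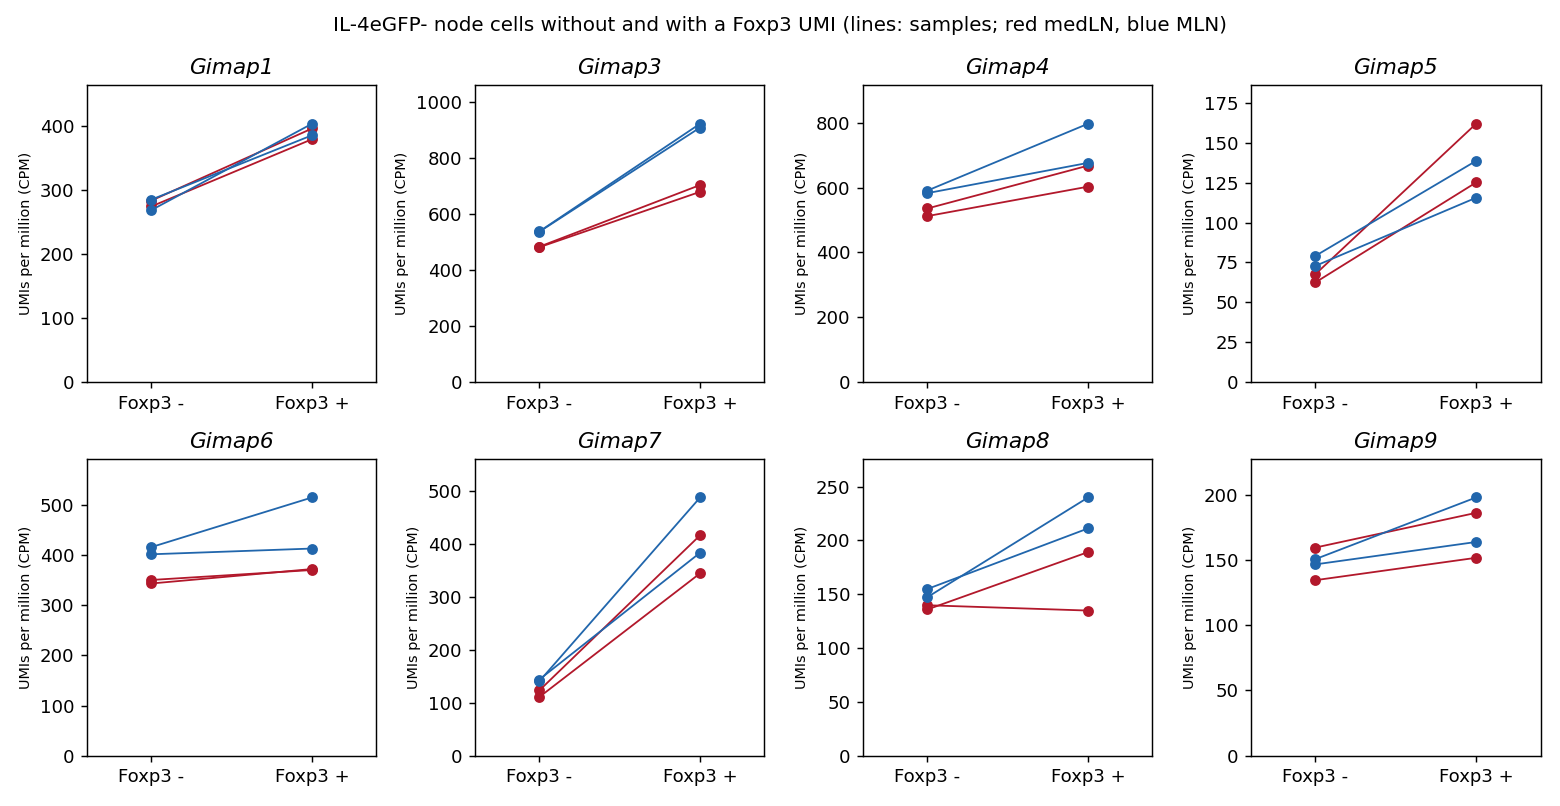
Level of each GIMAP gene in CPM (y axis from 0) in IL-4eGFP- node cells without and with a Foxp3 UMI (x axis). Each line joins the 2 cell classes of 1 sample, red for medLN and blue for MLN. For Gimap7 all 4 lines rise from 111 to 144 CPM to 345 to 488 CPM, and for Gimap6 the 2 classes overlap.

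In the same Foxp3-positive cells 11 of 17 quiescence and recirculation genes were lower and 1 was higher, led by the naive T cell factors Tcf7 (-1.70 ± 0.08) and Lef1 (-1.21 ± 0.08), with a list median of -0.41. Over all genes 11.2% were called lower and 14.2% higher. Of the BCL2 family 5 were higher, among them Bcl2a1d (1.79 ± 0.16) and Bcl2a1b (1.57 ± 0.11), and 1 was lower. Of the 8 partners 3 were higher, Gabarapl1 (2.04 ± 0.61), Gabarap (0.34 ± 0.07) and Map1lc3b (0.22 ± 0.08), with edgeR adjusted p-values up to 0.0446. In the cluster's neighbourhood Rarres2 was higher (2.03 ± 0.57) and Tmem176b lower (-1.18 ± 0.26).

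Over the 12 samples, with levels centred within each run, Gimap4 followed the family sum most closely (r = 0.99 on log2(CPM + 1)), then Gimap6 and Gimap3 (both 0.98), Gimap9 (0.94), Gimap7 (0.89), Gimap8 (0.86), Gimap1 (0.81) and Gimap5 (0.53), each being part of the sum. Among 2907 genes outside the family with a mean of at least 50 CPM, the 8 with the most similar pattern were Psmb10, Dtx1 and Tnfaip8l2 (r = 0.98 each), Fam189b, Wdr33 and Vrk3 (0.97 each), and Mpp1 and Psme2 (0.96 each). Psmb10 encodes a subunit of the immunoproteasome, and Psme2 a subunit of its activator. Psmb10 stood at 71.5 and 98.7 CPM in lung, 157 and 148 CPM in MLN of the same mice, and 149.9 to 202 CPM in the second run. These correlations are descriptions over 12 samples that share mice, libraries and depth.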

How the data were processed

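CD4+ T cells of 4get mice were profiled by 10x Genomics 5′ single-cell RNA-seq. The submitters' processing notes name Cell Ranger 2.1.1, 3.0.1 and 6.1.2 with mm10/GRCm38, and the deposited matrices hold raw UMI counts per gene and barcode. Barcodes were kept above 500 UMIs and 500 genes, at a mitochondrial share below 7% and a novelty above 0.8, which left 9382 of 9603 IL-4eGFP+ and 10024 of 10080 IL-4eGFP- node barcodes. In the first run cells also needed a productive T cell receptor, which left 1082 and 416 lung and 2462 and 754 MLN cells. Hashtag counts were called with HTODemux in Seurat 5.3.0, and cells called doublets or negative were left out. No other doublet caller was run.

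Counts were summed per sample, or per sample and class of cells with or without a UMI of a marker, and tested with edgeR 4.0.16 (R 4.3.3) by quasi-likelihood with TMM scaling and filterByExpr, over all genes but those of T cell receptors, p-values being adjusted by Benjamini and Hochberg's method and called below 0.05. Class comparisons had the sample as a block. After thinning, cells were put into classes again by the marker UMIs left in the thinned counts. Same-numbered samples came from the same mouse, and their deviations from group means correlated at 0.06 (lung and MLN), 0.42 (nodes, IL-4eGFP+), -0.07 (nodes, IL-4eGFP-) and 0.19 to 0.31 (gates). Alternatives included DESeq2 1.42.0, each sample left out, the mouse as a block, thinning to 2000 UMIs per cell and leaving out cycling or Foxp3-positive cells, the last 2 partly added after the data had been seen. One gene of the quiescence list, with the cell classes and settings built on it, is not reported here. The edgeR fit was also run on simulated counts of independent samples with a small set of changed genes. That run could not check samples that share mice, or comparisons in which most genes were called. The members and gene lists were chosen with earlier results of these data known. Named genes were all 8 members, at most 4 called genes per other list with the largest change, and the 8 genes most like the family sum.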

Additional observations from a re-analysis of the deposited data

Results flagged for a closer look

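The effect of the Mki67 class differed between the gates in a test of the difference itself for Gimap3 (-0.56 on the log2 scale, IL-4eGFP+ minus IL-4eGFP-), Gimap4 (-0.44), Gimap5 (-1.20), Gimap6 (-0.62) and Gimap7 (-1.12). That test was added after the data had been seen. After thinning to 2000 UMIs, which also set the classes anew, only Gimap5 of these genes was still called.

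Outside the 8 members, the read-through gene Gm28053 gave 16.4 to 19.9 CPM in the first run, and the antisense gene Gimap1os 29.8 to 39.4 CPM in the second.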

How the results depend on the processing

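Of 760 values of single members under other settings, 674 kept their direction and side of the threshold, 38 lost and 28 gained a call, and 20 changed sign, 1 of them a called value. With 2 mice per organ and gate, and 31 to 52 Mki67-positive cells per IL-4eGFP- sample, a missed threshold does not show that levels were alike.

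For medLN against MLN in IL-4eGFP- cells the count of members called, 0, became 1 with DESeq2, 1 after thinning, 3 with the replicate block (mouse), and 1 to 3 with 1 sample left out. With the replicate block, 8 members were called between lung and MLN, Gimap1 being added, and the 7 calls between the gates stayed. For the Mki67 classes, lung and MLN went from 7 to 2 with no replicate block and 3 after thinning, IL-4eGFP- nodes from 6 to 2 after thinning, and the difference between gates from 5 to 2 after thinning. The causes were not tested.

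The called value that changed sign was that of Gimap1 between the gates without cycling cells, at 0.0488 on the log2 scale. The other 19 changes of sign were of log2 values called in neither fit. Between the gates Gimap7 stood at 0.11 without cycling cells, 0.16 in MLN alone and 0.0672 without Foxp3-positive cells. In the difference of the Mki67 effect between gates Gimap9 ranged from -0.0906 to 0.14 with 1 sample left out, and stood at -0.0226 with DESeq2 and -0.0486 without Foxp3-positive cells, and Gimap1 stood at 0.14 after thinning. For Mki67 in IL-4eGFP- nodes Gimap5 stood at -0.0053 without Foxp3-positive cells, and for Foxp3 Gimap6 stood at 0.16 after thinning and 0.14 without cycling cells. With 1 sample left out, Gimap9 ranged from -0.21 to 0.0482 and Gimap1 from -0.0821 to 0.0264 between medLN and MLN in IL-4eGFP- cells, Gimap9 from -0.0162 to 0.16 for Mki67 in lung and MLN, and Gimap6 from -0.0919 to 0.0143 for Foxp3.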
